A study of Homo sapiens with 24 samples.

Results

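The response to cyclocreatine that 3 human leukemia cell lines had in common was taken from all 24 RNA sequencing libraries of the series, 12 treated and 12 vehicle. A gene was kept where its level differed between treated and vehicle libraries with an adjusted p under 0.05 and the same sign in each of the lines. Of 14588 genes tested, 2587 met this rule, 1278 higher and 1309 lower under treatment, and they are called shared genes here. All are acute myeloid leukemia lines described by the series as EVI1-driven, EVI1 being a transcription factor made from the MECOM gene. TF-1 came from an erythroleukemia, UT-7 from a megakaryoblastic leukemia, and the third line is UCSD-AML1. For 24 h each line was given either vehicle or 3 mM cyclocreatine, and each of the 6 groups has 4 libraries. The lines are 3 models and not a sample of patients. With vehicle, MECOM itself stood at 412.2 ± 14.71 CPM (mean ± SD, n = 4) in UCSD-AML1 but at 13.03 ± 2.432 CPM in TF-1 and 6.344 ± 0.7389 CPM in UT-7, so that its RNA was low in the last 2 of these lines. CPM are counts scaled to library size.

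Cyclocreatine is a ring-shaped analog of creatine that enters cells and is phosphorylated by creatine kinases. Creatine kinases move phosphate between ATP and creatine, which buffers ATP and carries high-energy phosphate from mitochondria to sites of use. The phosphorylated analog gives its phosphate back slowly, so that the compound is used to hold down this buffer.

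The libraries held 12794998 to 21200662 counts, of which 99.93% or more fell in tested genes. The blood cell markers PTPRC, KIT, CD33, SPI1 and GATA2 were present in all 6 groups at group means of 43.4 CPM or more, while CD34 was low in UT-7 (2.19 CPM with vehicle). GATA1 stood at 21 CPM with vehicle and 16.6 CPM under cyclocreatine in UCSD-AML1, and at 151 CPM or more in the groups of the other lines. CPM are counts divided by the library size in megareads, after scaling of the library sizes by TMM. Summed lymphoid markers stayed between 58.1 and 271 CPM over all libraries, and summed stromal and epithelial markers between 65.7 and 515 CPM. None of the 14 lymphoid and 9 stromal or epithelial markers tested was shared. Over all lines 2 lymphoid markers (14.3%) were called higher and 5 (35.7%) lower, against 27.9% and 30.5% of all genes tested. Of the stromal or epithelial markers 2 (22.2%) were called higher and 0 lower. Of 9 tested granulocyte and monocyte markers CSF3R and CST3 were shared higher. The summed level of the full list of 17 was 460 to 472 CPM with vehicle and 558 to 622 CPM under cyclocreatine in TF-1. It was 279 to 293 and 270 to 278 CPM in UT-7, and 581 to 602 and 610 to 624 CPM in UCSD-AML1. The part of this list in the results was not tested. Cyclocreatine replicate 1 of TF-1 stood apart from its group. On the second principal component of that line it lay at 38.26, against -20.56 to -10.48 in the other treated libraries, and 10.29% of its counts were in cytosolic ribosomal protein genes, against 8.508% to 8.56%. Counts are given without it where they change by over 1.5 times. Nothing in the labels tells separate cultures from repeat preparations, so the p-values speak only for the spread among these libraries, which may be technical.

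Over all lines, with the line as a block, 4073 genes (27.9% of those tested) were higher and 4450 (30.5%) lower under cyclocreatine in edgeR's quasi-likelihood test. Together these are 58.4% of tested genes. Of the 8523 genes, 2010 did not have 1 sign in each line and 6513 (76.4%) did. These are 21.6% of tested genes in the higher and 23.1% in the lower direction. Line by line, 56% of tested genes were called for TF-1 (26.7% higher, 29.3% lower), 45.9% for UT-7 (22.5% and 23.3%) and 40.5% for UCSD-AML1 (19.1% and 21.3%). The shared genes were 17.7% of tested genes, 8.76% in the higher and 8.97% in the lower direction. Each of them was also called in the block fit. With library totals alone as the scaling, 36.5% of the calls in TF-1 were higher, against 47.7% with TMM, and the shared genes numbered 1064 higher and 1568 lower.

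Most shared changes were small. For shared higher genes the median change was 1.38-fold (TF-1), 1.28-fold (UT-7) and 1.26-fold (UCSD-AML1). For shared lower genes it was 1.38-fold, 1.32-fold and 1.27-fold. At least 1.5-fold in each line was reached by 119 higher and 134 lower genes, and at least 2-fold by 30 and 27. TF-1 had the largest change of the lines for 739 of the shared higher and 614 of the shared lower genes, and UCSD-AML1 for 214 and 292. For 1003 shared higher genes the 4 treated libraries lay above all 4 vehicle libraries in every line, a pattern found in 7.64% of tested genes. For 1017 shared lower genes they lay below, against 7.59% of tested genes. The rule chose the shared genes on these same libraries, and the 1115 and 1107 tested genes so separated are mostly shared genes. The separation is thus a description and not further support. A common sign did not mean a common size. The size of the effect differed between lines (edgeR's interaction test, adjusted p under 0.05) for 49% of the shared higher and 49.7% of the shared lower genes, against 43.3% of all genes tested.

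**Figure D1:**
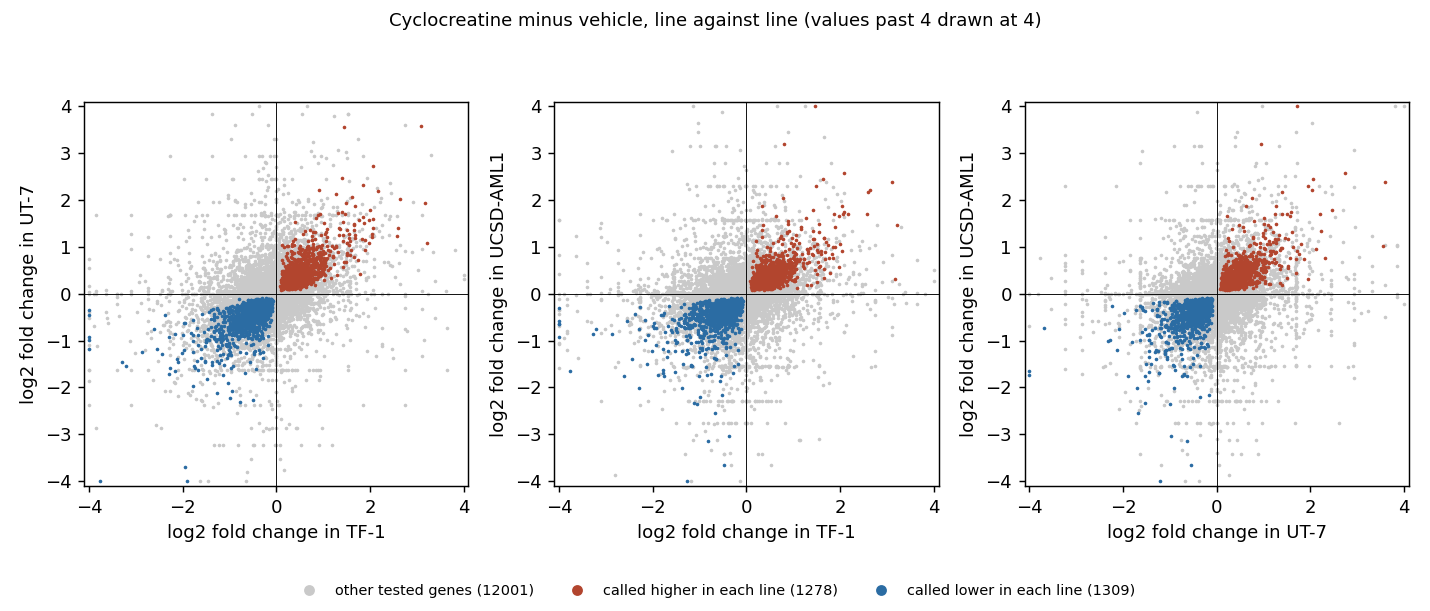
Each panel plots the log2 fold change (cyclocreatine minus vehicle) of one line against that of another, with 1 point per gene. Shared genes (1278 red, 1309 blue) fill the corners of equal sign, and the other genes tested are grey; Pearson's r across genes, which are not independent replicates, was 0.406 for TF-1 and UT-7, 0.306 for TF-1 and UCSD-AML1, and 0.312 for UT-7 and UCSD-AML1.

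The 12 genes with the largest increase held in each line were SAT1, GBP2, RAPGEFL1, CUL7, UCP2, DNHD1, NAGLU, RAD52, PINK1, EPB41L4A-AS1, IDUA and NT5M. SAT1, which acetylates spermidine and spermine for export or breakdown, stood at 45.11, 42.07, 48.14 and 51.52 CPM in vehicle-treated TF-1 and at 199.9, 160.5, 165.5 and 164.2 CPM under cyclocreatine. In UT-7 it went from 94.19 ± 1.559 to 207.9 ± 12.88 CPM (mean ± SD, n = 4), and in UCSD-AML1 from 38.53 ± 0.5045 to 104.4 ± 5.667 CPM. No treated library overlapped a vehicle library in any line. The log2 fold changes of SAT1 were 1.88 ± 0.06 (SE), 1.14 ± 0.06 and 1.44 ± 0.06 in TF-1, UT-7 and UCSD-AML1, with adjusted p of at most 2.75e-18 in edgeR. CUL7, a cullin of ubiquitin ligases, rose by 1.08 ± 0.04, 1.38 ± 0.04 and 0.97 ± 0.05 on the log2 scale, in that order of lines. UCP2, an uncoupling protein of the inner mitochondrial membrane, rose from 265 ± 3.396 to 518 ± 24.39 CPM in TF-1, from 132.8 ± 3.001 to 272.7 ± 15.45 in UT-7, and from 105.6 ± 1.843 to 241.4 ± 4.998 in UCSD-AML1. The mitochondrial deoxynucleotidase NT5M rose by 1.41 ± 0.08, 1.13 ± 0.09 and 0.83 ± 0.08. PINK1, the kinase that marks damaged mitochondria for removal, rose by 0.87 ± 0.10, 1.0 ± 0.09 and 1.3 ± 0.09. NAGLU and IDUA, lysosomal enzymes that degrade heparan sulfate, both rose in each line, NAGLU by 0.99 ± 0.08, 0.91 ± 0.08 and 0.90 ± 0.07. GBP2, an interferon-inducible GTPase, rose by 1.69 ± 0.14, 1.2 ± 0.10 and 1.10 ± 0.09, and RAPGEFL1 by 1.27 ± 0.15, 1.0 ± 0.14 and 1.61 ± 0.15. The recombination factor RAD52 rose by 1.52 ± 0.08, 0.88 ± 0.08 and 0.90 ± 0.08. The log2 fold changes of DNHD1 and of the noncoding RNA EPB41L4A-AS1 lay between 0.86 for EPB41L4A-AS1 in UCSD-AML1 and 1.72 for DNHD1 in UT-7. EPB41L4A-AS1 is an antisense RNA, and whether the counting used strand is not stated in the labels, so that its level is uncertain.

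The largest decreases common to the lines included the kinases that start ethanolamine and choline phospholipid synthesis. ETNK1, ethanolamine kinase, stood at 86.96, 79.36, 88.72 and 81.59 CPM in vehicle-treated TF-1 and at 16.96, 19.57, 19.13 and 21.37 CPM under cyclocreatine. It went from 115 ± 5.417 to 43.68 ± 4.348 CPM in UT-7 and from 128.6 ± 8.817 to 45.58 ± 1.005 in UCSD-AML1. The groups did not overlap in any line. The log2 fold changes of ETNK1 were -2.12 ± 0.07, -1.40 ± 0.06 and -1.5 ± 0.06, with adjusted p of at most 1.15e-20 in edgeR. CHKA, choline kinase, fell (-2.16 ± 0.05, -1.64 ± 0.05 and -0.98 ± 0.06) on the log2 scale, so that its decrease was ordered from TF-1 to UCSD-AML1 (interaction adjusted p = 4.76e-14 in edgeR). PIM2, a survival kinase induced by cytokine signals, fell (-1.0 ± 0.04, -1.06 ± 0.05 and -1.34 ± 0.05). ETV4, an ETS transcription factor induced by MAPK signaling, fell (-0.89 ± 0.09, -1.10 ± 0.11 and -1.29 ± 0.14). HYAL3, of the hyaluronidase family, fell (-1.52 ± 0.10, -1.11 ± 0.11 and -1.23 ± 0.10), as did the adaptor FYB (-1.18 ± 0.07, -1.41 ± 0.07 and -1.06 ± 0.07). MTURN fell (-1.52 ± 0.07, -1.45 ± 0.07 and -0.99 ± 0.09), FAM210B (-1.28 ± 0.07, -1.01 ± 0.11 and -0.91 ± 0.10) and APOL4 (-1.2 ± 0.06, -0.85 ± 0.06 and -0.93 ± 0.08). The actin-binding coronin CORO7 and the homeobox gene HOMEZ were the others described.

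**Figure D2:**
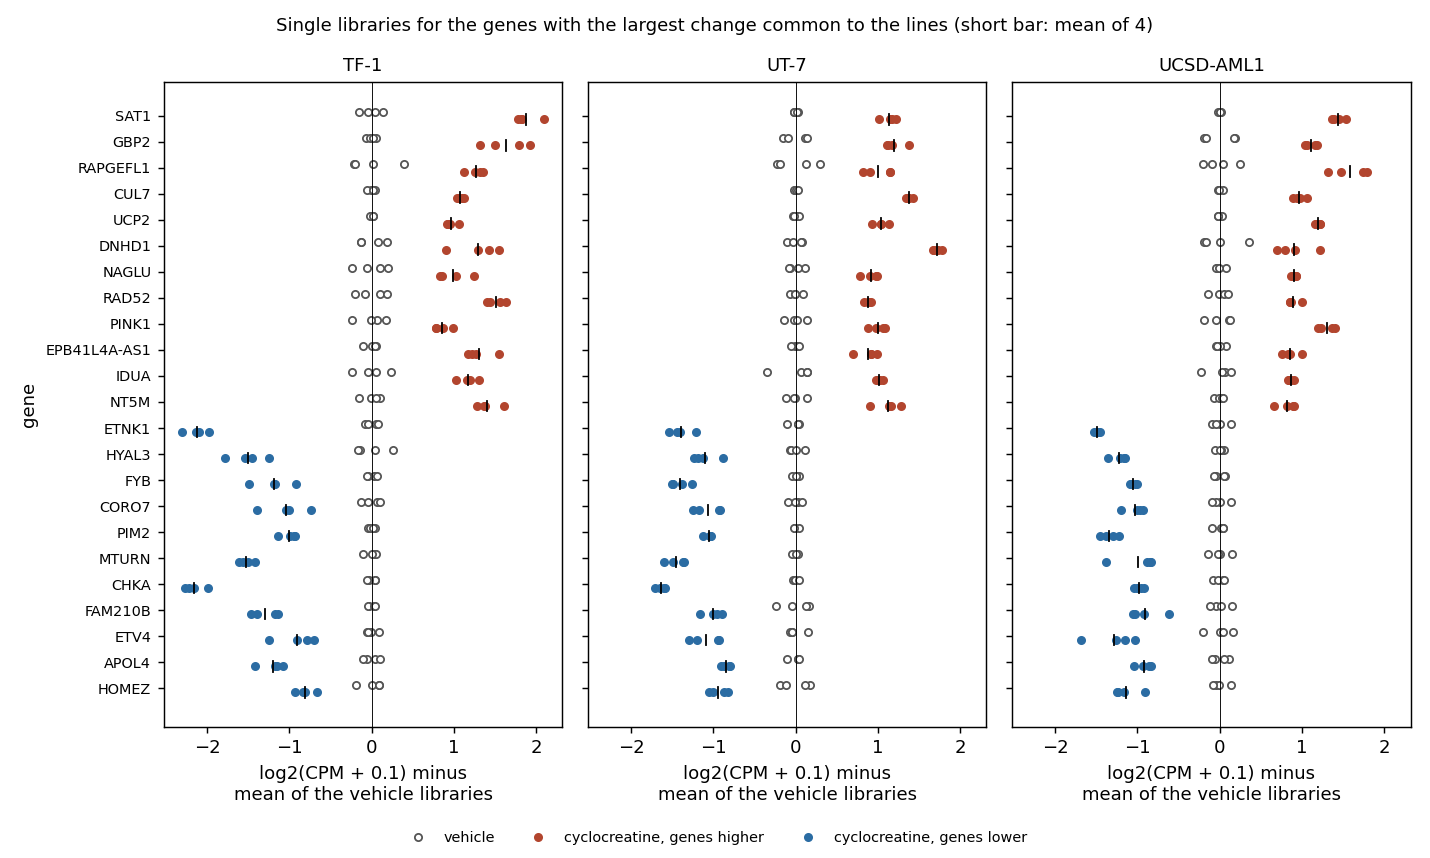
Rows are the 12 shared genes with the largest increase and 11 of the 12 with the largest decrease held in each line (at least 5 CPM in each). The horizontal axis is log2(CPM + 0.1) minus the mean of the 4 vehicle libraries of that line, points are single libraries and short bars are the means of 4. Treated libraries of SAT1 lie to the right of the vehicle libraries and those of ETNK1 to the left in each line.

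Other shared genes changed by nearly the same amount in each line. Among those that changed at least 1.5-fold in each, CDK10, a cyclin-dependent kinase, rose by 0.73 ± 0.06, 0.70 ± 0.06 and 0.69 ± 0.05 in TF-1, UT-7 and UCSD-AML1. MAP2K7, a kinase of the JNK pathway, rose by 0.66 ± 0.05, 0.68 ± 0.04 and 0.62 ± 0.05, although its vehicle level ranged from 49.39 CPM in TF-1 to 151.1 CPM in UT-7. KIAA0125, a noncoding RNA, fell (-0.65 ± 0.04, -0.68 ± 0.05 and -0.66 ± 0.04) from vehicle levels of 72.37 ± 4.001, 48.27 ± 0.8719 and 546.3 ± 8.461 CPM. The cytidine deaminase APOBEC3D, FAM193B and NAGLU were the other even increases. CORO7, CHURC1, the gap junction gene GJA5 and ARMCX5 were the other even decreases. These 10 genes were chosen for the smallest spread of log2 fold change between the lines, so that their evenness is a description and was not tested. At the edge of the rule, SGPL1, the lyase that ends sphingolipid breakdown, was just inside (adjusted p = 0.04998 in TF-1, edgeR). SPECC1L was just outside (0.05006 in TF-1).

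Of 59 gene lists, 18 had a larger share of shared higher genes and a smaller share of shared lower genes than all genes tested, and 23 had the reverse. The 29 lists described below were picked after their counts had been seen, and the plot of shares by list shows all 59.

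**Figure D3:**
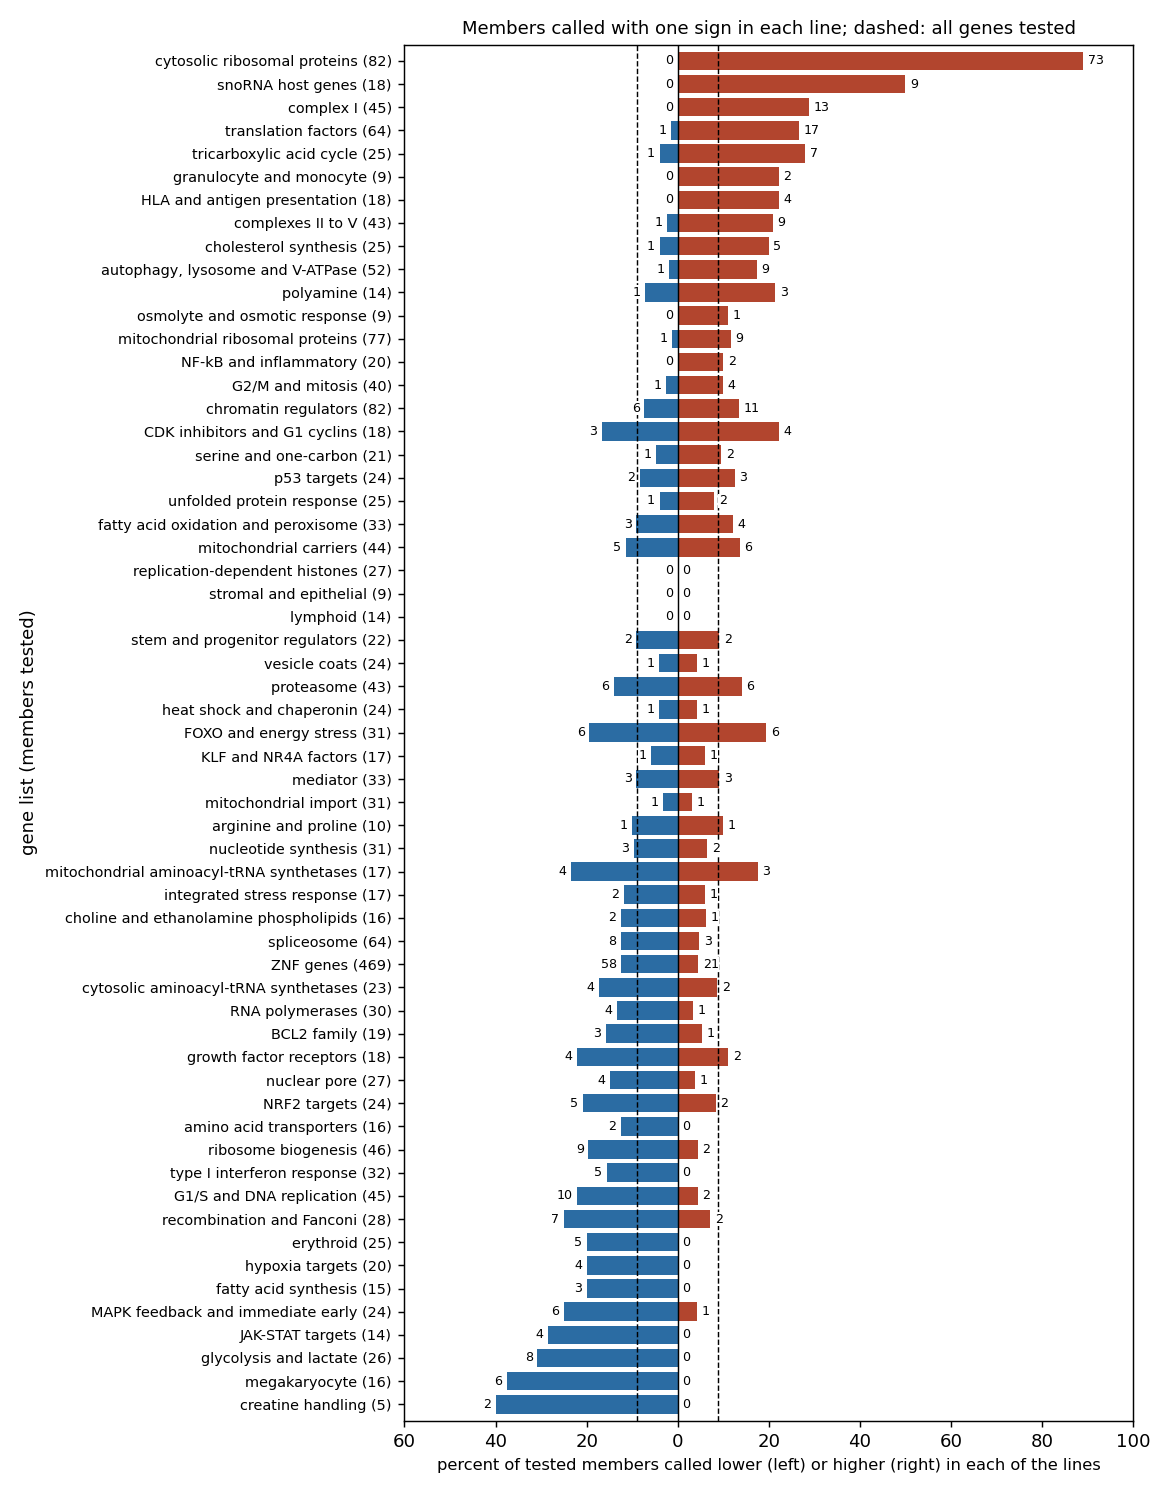
For each of the 59 gene lists, bars give the percent of tested members called higher (red, right) or lower (blue, left) in each of the lines, with the number of members beside the bar. Dashed lines mark the shares over all genes tested, 8.76% higher and 8.97% lower; cytosolic ribosomal proteins reach 89% higher, and creatine handling, with 5 members, 40% lower.

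Cytosolic ribosomal proteins had the largest share of shared genes among the 59 lists. Of 82 tested cytosolic ribosomal protein genes, whose products build the ribosome's subunits, 73 (89%) were shared higher and 0 shared lower, against 8.76% and 8.97% of all genes. Their median log2 fold changes, in the order TF-1, UT-7, UCSD-AML1, were 0.57, 0.31 and 0.26, beside medians of all genes within 0.01 of 0. RPL12 stood at 767.3, 791.1, 770.4 and 800.4 CPM in vehicle-treated TF-1 and at 1452, 1163, 1166 and 1172 CPM under cyclocreatine. It went from 461 ± 10.83 to 616.2 ± 31.48 CPM in UT-7 and from 770.8 ± 20.1 to 1005 ± 24.55 in UCSD-AML1. RPL22L1, a paralog of RPL22, rose most of the shared members in TF-1 and UT-7, by 1.5 ± 0.05, 0.67 ± 0.07 and 0.42 ± 0.05 on the log2 scale. TF-1 is the line in which cyclocreatine replicate 1 held the highest ribosomal share. Without that library 76 members were shared and the TF-1 median was 0.48. Of the 9 members that were not shared, RPL7L1 had the opposite sign in each line (-0.07, -0.15 and -0.15), and RPL39L and RPS27L had opposite signs between lines. Many of these genes have near-identical processed copies, so that single values depend on how such reads were counted.

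Host genes of small nucleolar RNAs carry in their introns the guides for ribosomal RNA modification, and most of the list is noncoding, while GNB2L1 and TAF1D encode proteins. Of 18 tested, 9 (50%) were shared higher, GNB2L1 and TAF1D among them, and 0 shared lower. SNHG4 was called lower in TF-1 and UCSD-AML1, and SNHG11 in UT-7. SNHG6 rose by 1.12 ± 0.06, 0.84 ± 0.06 and 0.70 ± 0.06, and ZFAS1 by 1.04 ± 0.05, 0.65 ± 0.06 and 0.72 ± 0.06. Small nucleolar RNAs sit inside these genes, so that part of the counts may be theirs. Of 64 translation factors 17 (26.6%) were shared higher. EIF2B2, a subunit of the exchange factor for the initiator tRNA carrier eIF2, rose by 0.58 ± 0.06, 0.75 ± 0.06 and 0.60 ± 0.06. TPT1, a growth-linked translation-associated protein, went from 1938 ± 62.69 to 3007 ± 203.1 CPM in TF-1 and rose in the other lines by 0.39 ± 0.04 and 0.33 ± 0.04. EIF4G2, a scaffold of cap-independent initiation, was the single shared lower factor, and without TF-1 cyclocreatine replicate 1 there were 2.

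Of 46 genes that make ribosomal RNA and assemble ribosomes, 9 (19.6%) were shared lower and 2 shared higher. The lines differed in this list: 19 members were called higher and 11 lower in TF-1, 4 and 33 in UT-7, and 5 and 22 in UCSD-AML1. The medians were 0.01, -0.22 and -0.09, and in TF-1 the median was -0.0111 with DESeq2's size factors and -0.0731 with library totals alone. UBTF, which loads RNA polymerase I at ribosomal DNA, stood at 163.2 ± 9.344, 220.1 ± 3.668 and 241.2 ± 7.613 CPM with vehicle and at 104.6 ± 6.684, 119.6 ± 2.316 and 174.8 ± 1.123 CPM under cyclocreatine in TF-1, UT-7 and UCSD-AML1. The groups of UBTF did not overlap. RRN3, the initiation factor of that polymerase, fell (-0.37 ± 0.05, -0.43 ± 0.04 and -0.61 ± 0.05). POLR1A, the polymerase's largest subunit, was shared lower as well. NOB1, which trims the small-subunit RNA, rose by 0.58 ± 0.05, 0.27 ± 0.05 and 0.25 ± 0.05. The count of shared lower members was 17 with library totals alone and 5 with the GC and length trend removed. The count of shared higher members was 1 without TF-1 vehicle replicate 2 or 4 or cyclocreatine replicate 2 or 3, and 3 without TF-1 cyclocreatine replicate 1 or 4 or UCSD-AML1 vehicle replicate 1.

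Nuclear genes of the respiratory chain were counted by complex. Complex I, the NADH dehydrogenase, had 13 of 45 members shared higher (28.9%) and 0 shared lower. NDUFS8 rose by 0.49 ± 0.07, 0.37 ± 0.07 and 0.41 ± 0.07 on the log2 scale, NDUFAF5, an assembly factor, by 0.44 ± 0.08, 0.30 ± 0.08 and 0.54 ± 0.09, and NDUFS4 by 0.66 ± 0.06, 0.55 ± 0.06 and 0.28 ± 0.06. Complexes II to V had 9 of 43 shared higher (20.9%), and CYCS, which encodes cytochrome c, was shared lower (-0.17, -0.17 and -0.27). COX7C, a cytochrome oxidase subunit, stood at 396, 309.9, 309.2 and 311.1 CPM in treated TF-1, against 208 to 222.5 CPM with vehicle. It went from 273.2 ± 11.45 to 343.1 ± 13.01 CPM in UT-7 and from 162.2 ± 1.792 to 203.3 ± 5.808 in UCSD-AML1. Without TF-1 cyclocreatine replicate 1, the highest library for COX7C, 15 members of complexes II to V were shared higher. UQCRB rose by 0.65 ± 0.04, 0.30 ± 0.04 and 0.30 ± 0.04, and SDHB, of succinate dehydrogenase, by 0.42 ± 0.05, 0.28 ± 0.05 and 0.28 ± 0.05. The medians of complexes II to V were 0.26, 0.09 and 0.08, and those of complex I were 0.18, 0.04 and 0.06. Without TF-1 cyclocreatine replicate 1 the TF-1 median of complex I was 0.0854, and with library totals alone the medians in TF-1 and UT-7 were 0.103 and 0.00373. The tricarboxylic acid cycle list had 7 of 25 members shared higher (28%). DLST, of the oxoglutarate dehydrogenase complex, rose by 0.33 ± 0.04, 0.27 ± 0.04 and 0.40 ± 0.04, and PDHB, of pyruvate dehydrogenase, by 0.35 ± 0.04, 0.24 ± 0.05 and 0.18 ± 0.04. There was 1 shared lower member, and without TF-1 cyclocreatine replicate 2 or 3 there were 2. With library totals alone 4 members of this list were shared higher.

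**Figure D4:**
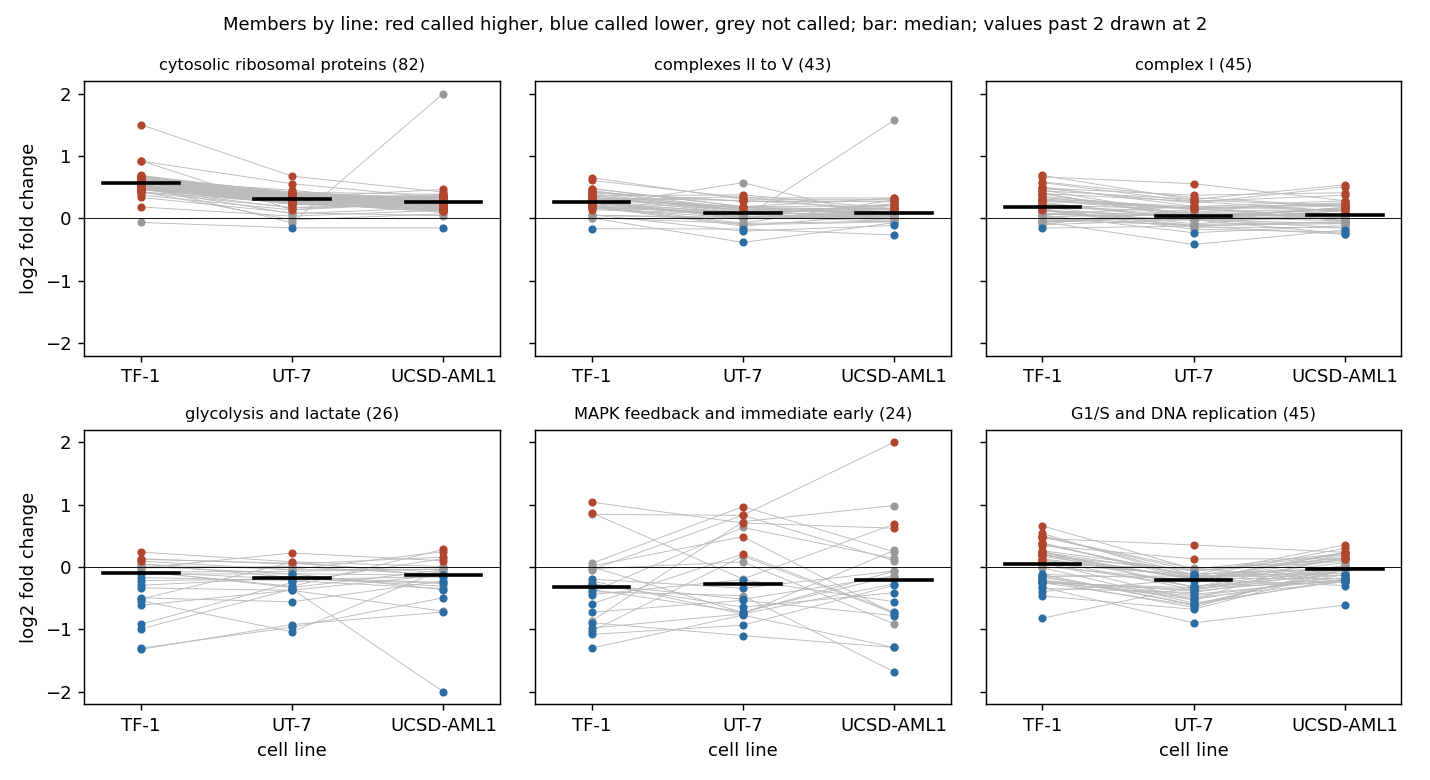
Points are the members of 6 gene lists, with the log2 fold change (cyclocreatine minus vehicle) on the vertical axis by cell line, grey lines joining a gene over the lines, and black bars at the medians. Most ribosomal protein genes lie above 0, RPL7L1 below 0 in each line, with medians of 0.57, 0.31 and 0.26, while medians of glycolysis genes (-0.10, -0.18 and -0.13) and of MAPK feedback genes (-0.32, -0.27 and -0.21) lie below 0.

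Of 26 genes of sugar breakdown and lactate, 8 (30.8%) were shared lower and 0 shared higher. By line 4, 2 and 4 members were called higher in TF-1, UT-7 and UCSD-AML1, ALDOA, ENO1, LDHB and PFKL in TF-1 among them, and 13, 15 and 12 lower. The TF-1 median of -0.10 was -0.168 without cyclocreatine replicate 1 and -0.178 with library totals alone. ENO2, an enolase, went from 40.45 ± 3.919 to 16 ± 3.031 CPM in TF-1, from 28.28 ± 2.113 to 14.93 ± 1.022 in UT-7, and from 13.64 ± 1.448 to 8.29 ± 0.6302 in UCSD-AML1, with no overlap of treated and vehicle libraries. PFKFB4 and PFKFB2 make and remove the form of fructose bisphosphate that activates phosphofructokinase. PFKFB4 fell (-1.3 ± 0.08, -0.96 ± 0.09 and -0.49 ± 0.08), and PFKFB2 (-0.99 ± 0.08, -0.35 ± 0.07 and -2.21 ± 0.09). The order of the lines thus differed between these related enzymes. HK2, PFKP, PGK1, LDHA and the lactate carrier SLC16A1 made up the rest of the shared lower members. Of 20 hypoxia targets 4 (20%) were shared lower and 0 higher. With the GC and length trend removed 3 were shared lower and 1 higher. BNIP3, a mitophagy receptor, fell (-0.41 ± 0.06, -0.70 ± 0.07 and -0.87 ± 0.07). PDK1, which inhibits pyruvate dehydrogenase, fell (-0.54 ± 0.05, -0.32 ± 0.06 and -0.54 ± 0.05), and EGLN1, an oxygen-sensing hydroxylase, (-0.56 ± 0.05, -0.69 ± 0.07 and -0.27 ± 0.05).

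Of 25 cholesterol synthesis genes 5 (20%) were shared higher. MVK, mevalonate kinase, rose by 0.37 ± 0.09, 0.87 ± 0.08 and 0.39 ± 0.09, ACAT2 by 0.47 ± 0.05, 0.61 ± 0.05 and 0.29 ± 0.05, and the squalene synthase FDFT1 by 0.43 ± 0.04, 0.52 ± 0.04 and 0.24 ± 0.04. The medians of that list were -0.14, 0.27 and 0.01, and 9 members were called higher and 12 lower in TF-1. Without TF-1 cyclocreatine replicate 1 the TF-1 median was -0.0274. There was 1 shared lower member, and 0 without UT-7 vehicle replicate 2 or cyclocreatine replicate 3 or 4. Of 15 fatty acid synthesis genes 3 (20%) were shared lower and 0 higher. SREBF1, the transcription factor of fatty acid synthesis, stood at 287.2 ± 11.02, 235.8 ± 6.362 and 188.4 ± 3.339 CPM with vehicle and at 161.4 ± 10.19, 125.8 ± 3.754 and 145.5 ± 2.21 CPM under cyclocreatine in TF-1, UT-7 and UCSD-AML1. The elongase ELOVL6 fell (-0.35 ± 0.05, -0.34 ± 0.05 and -0.49 ± 0.06), and the desaturase FADS2 (-0.45 ± 0.03, -0.35 ± 0.03 and -0.16 ± 0.03). With library totals alone 5 members of that list were shared lower. In the list of choline and ethanolamine phospholipids, the 16 members included ETNK1 and CHKA as shared lower (12.5%, against 8.97% of all genes). PEMT, which methylates phosphatidylethanolamine to phosphatidylcholine, was the single shared higher member (0.52 ± 0.09, 0.36 ± 0.09 and 0.36 ± 0.10). With the GC and length trend removed PEMT did not pass in UCSD-AML1 (adjusted p = 0.0704, edgeR). The shared lower count of that list was 4 without TF-1 cyclocreatine replicate 1 and 3 without TF-1 cyclocreatine replicate 2 or UCSD-AML1 cyclocreatine replicate 3.

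Of 52 autophagy, lysosome and proton pump genes 9 (17.3%) were shared higher. The cholesterol transporters NPC1 and NPC2, which work in sequence in the lysosome, rose by 0.39 ± 0.07, 0.45 ± 0.08 and 0.35 ± 0.08, and by 0.36 ± 0.06, 0.36 ± 0.07 and 0.28 ± 0.07. ATP6V1F, a subunit of the proton pump, rose by 0.38 ± 0.05, 0.32 ± 0.06 and 0.43 ± 0.06. The lysosomal membrane protein LAMP1, the transcription factor TFE3 and FLCN, its regulator, were also shared higher. LAMP1 is shown because it carries the element CACGTG, to which TFE3 and related factors can bind, at 5 places in the 250 bases before its start. It went from 159.1 ± 8.497 to 202.5 ± 8.708 CPM in TF-1, from 231.2 ± 6.727 to 278.7 ± 12.57 in UT-7 and from 239.3 ± 6.801 to 276.7 ± 6.463 in UCSD-AML1. Its promoter is from RefSeq on GRCh38.p14, chr13:113296989-113297238, plus strand, with CACGTG in capitals.
LAMP1: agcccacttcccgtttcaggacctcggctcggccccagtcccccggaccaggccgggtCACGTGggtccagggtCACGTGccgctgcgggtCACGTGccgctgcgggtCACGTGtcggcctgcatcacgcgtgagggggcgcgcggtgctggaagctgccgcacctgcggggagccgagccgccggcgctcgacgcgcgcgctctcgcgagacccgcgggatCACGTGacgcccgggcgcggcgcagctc

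ATG9A, an autophagy scramblase, was the single shared lower member of the lysosomal list, and there was 0 when UCSD-AML1 lost vehicle replicate 1 or 2, or treated replicate 1 or 3. The median of the list in TF-1, 0.04, was -0.04 with library totals alone. The 9 shared higher members became 6 without UCSD-AML1 cyclocreatine replicate 3 or 4 and 5 with library totals alone.

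In the list of FOXO targets and energy stress, 31 genes were tested, with 6 shared higher and 6 shared lower (19.4% each). TXNIP, which binds thioredoxin and limits glucose uptake, went from 354 ± 9.895 to 610.7 ± 23.8 CPM in TF-1, from 532.1 ± 12.01 to 1328 ± 93.79 in UT-7, and from 271.7 ± 11.86 to 615.2 ± 26.22 in UCSD-AML1. In each line all treated libraries lay above all vehicle libraries. The log2 fold changes of TXNIP were 0.79 ± 0.04, 1.32 ± 0.04 and 1.18 ± 0.04 (interaction adjusted p = 4.02e-09, edgeR). The kinase SGK1 rose by 1.85 ± 0.16, 1.63 ± 0.14 and 1.0 ± 0.24, at levels of at most 14.99 CPM. The stress genes SESN1 and ARRDC3 and the AMPK subunit PRKAG1 were also shared higher. The shared lower members were the insulin pathway genes INSR and IRS2, CITED2 and the AMPK subunits PRKAA1, PRKAB1 and PRKAG2. Subunits of the energy sensor AMPK thus stood on both sides. The promoter of TXNIP holds 1 copy of GTAAACA, a forkhead element to which FOXO factors can bind, and is shown for that reason. It is from RefSeq on GRCh38.p14, chr1:145996580-145996829, minus strand, with GTAAACA in capitals.
TXNIP: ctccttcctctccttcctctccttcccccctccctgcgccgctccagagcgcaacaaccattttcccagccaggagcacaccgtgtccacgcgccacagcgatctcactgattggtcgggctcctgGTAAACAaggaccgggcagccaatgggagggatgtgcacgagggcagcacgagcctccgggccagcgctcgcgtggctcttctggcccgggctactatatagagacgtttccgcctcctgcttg

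Of 14 JAK-STAT targets, genes induced by cytokine signaling, 4 (28.6%) were shared lower and 0 higher: PIM2, PIM1, CISH and the survival gene BCL2L1. Others differed between lines, since SOCS3, PIM3 and STAT5B were called higher in UCSD-AML1 and STAT3 in TF-1 and UT-7. With the GC and length trend removed 6 members were shared lower and 1 shared higher. PIM1 fell in each line, most in TF-1 (-0.98 ± 0.03, against -0.27 ± 0.03 and -0.22 ± 0.03) (interaction adjusted p = 3.84e-16, edgeR). CISH, a STAT5-induced inhibitor of cytokine receptors, stood at 84.18 ± 1.563, 29.03 ± 1.675 and 47.93 ± 1.27 CPM with vehicle and at 59.7 ± 5.12, 17.25 ± 0.8856 and 34.37 ± 1.463 CPM under cyclocreatine. The groups did not overlap in any line. Its promoter is shown because it holds 4 copies of the STAT palindrome, TTC and GAA with 3 bases between them, to which activated STAT dimers can bind. It is from RefSeq on GRCh38.p14, chr3:50611775-50612024, minus strand, with the palindromes in capitals.
CISH: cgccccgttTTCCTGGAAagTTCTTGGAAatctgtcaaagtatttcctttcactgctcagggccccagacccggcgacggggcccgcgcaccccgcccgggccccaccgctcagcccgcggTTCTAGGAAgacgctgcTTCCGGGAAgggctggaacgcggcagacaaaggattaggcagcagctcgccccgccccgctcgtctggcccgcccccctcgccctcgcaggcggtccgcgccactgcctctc

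Of 24 genes of MAPK feedback and immediate early response 6 (25%) were shared lower. CCND1, cyclin D1, stood at 59.34 ± 3.09, 285 ± 7.964 and 41.16 ± 2.951 CPM with vehicle and at 24.23 ± 2.504, 167 ± 8.856 and 16.74 ± 1.523 CPM under cyclocreatine in TF-1, UT-7 and UCSD-AML1. The others were ETV4, the phosphatase DUSP5, the feedback inhibitors SPRED1 and SPRED2, and IER5. DUSP10, a phosphatase that acts mainly on JNK and p38, was the single shared higher member (1.04 ± 0.13, 0.71 ± 0.13 and 0.62 ± 0.08).

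Of 32 type I interferon response genes 5 (15.6%) were shared lower and 0 higher, with medians of -0.66, -0.12 and -0.31. In UT-7 7 members were called lower and 4 higher. IFIT3, an antiviral effector, fell (-1.06 ± 0.10, -0.47 ± 0.13 and -0.46 ± 0.07), although treated and vehicle libraries did not separate in every line. SAMD9 fell (-1.25 ± 0.10, -0.32 ± 0.06 and -0.66 ± 0.06), and the ubiquitin ligase DTX3L (-0.44 ± 0.07, -0.46 ± 0.09 and -0.40 ± 0.06). Of 18 HLA and antigen presentation genes 4 (22.2%) were shared higher and 0 lower. In UT-7 these 4 were the members called higher, against 13 in each of the other lines, and TAP1, a peptide transporter, was called lower in TF-1 and UT-7. HLA-B rose by 0.38, 0.64 and 0.34 on the log2 scale, with overlap of treated and vehicle libraries in at least 1 line. In UT-7, where its change was largest, HLA-B was low, at 2.336 ± 0.4474 CPM with vehicle and 3.626 ± 0.611 CPM under cyclocreatine. HLA-DRA, a class II chain, rose by 0.57 ± 0.05, 0.63 ± 0.17 and 0.36 ± 0.05, and HLA-E was also shared higher. With the GC and length trend removed 4 members were shared higher and 1 shared lower. HLA-DRA was near its floor in UT-7, at 1.528 ± 0.2829 CPM with vehicle and 2.346 ± 0.401 CPM under cyclocreatine. HLA genes are alike and variable in sequence, so that their counts depend on how each line's alleles fit the reference.

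Of 45 genes of G1/S and DNA replication 10 (22.2%) were shared lower. By line 21 members were called higher and 17 lower in TF-1, 2 and 36 in UT-7, and 13 and 15 in UCSD-AML1. The medians were 0.05, -0.20 and -0.03, and -0.035 in TF-1 with library totals alone. CCNE2, a cyclin of S phase entry, fell (-0.33 ± 0.08, -0.90 ± 0.08 and -0.61 ± 0.07), and PCNA, the sliding clamp of DNA polymerases, (-0.24 ± 0.04, -0.49 ± 0.04 and -0.24 ± 0.04). POLE2, a polymerase subunit, was called in each line (-0.26 ± 0.09, -0.33 ± 0.08 and -0.24 ± 0.08). Its call was lost in TF-1 without vehicle replicate 4 (adjusted p = 0.0855, edgeR) or cyclocreatine replicate 4 (0.0544), and in UCSD-AML1 without cyclocreatine replicate 4 (0.0918). POLD3 and RFC5 were shared higher, and 1 of them was without UT-7 vehicle replicate 2, 3 or 4, UT-7 cyclocreatine replicate 1, 2 or 4, UCSD-AML1 vehicle replicate 1, 2 or 4, or any 1 of the treated UCSD-AML1 libraries. Of 40 G2/M genes 4 (10%) were shared higher, a share near the 8.76% of all genes. In UCSD-AML1 14 members were called lower and 4 higher, against 7 and 20 in TF-1 and 1 and 27 in UT-7, with medians of -0.08, 0.11 and 0.21. AURKB, a mitotic kinase, rose by 0.39 ± 0.05, 0.49 ± 0.05 and 0.36 ± 0.05, and CDC20, which activates the anaphase ligase, by 0.43 ± 0.05, 0.51 ± 0.05 and 0.29 ± 0.05. KIF11, a spindle motor, was the single shared lower member. With the GC and length trend removed 8 were shared higher.

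Of 28 recombination and Fanconi genes 7 (25%) were shared lower, and 4 with the GC and length trend removed. RAD52, which rose in each line (1.52, 0.88 and 0.90), is not a member of this list. The direction thus holds for the listed genes only. BRCA1 fell (-0.91 ± 0.06, -0.63 ± 0.05 and -0.41 ± 0.05), and BARD1, its partner, (-0.74 ± 0.11, -0.55 ± 0.10 and -0.50 ± 0.08). FANCG rose by 0.63 ± 0.06, 0.31 ± 0.06 and 0.39 ± 0.05, and NBN was the other shared higher member. There was 1 such member when UCSD-AML1 lost vehicle replicate 1 or 4, or treated replicate 1, 2 or 3. Of 27 nuclear pore genes 4 (14.8%) were shared lower, and 7 with library totals alone. NUP188 fell (-0.73 ± 0.04, -0.71 ± 0.04 and -0.29 ± 0.04), and NUP107 (-0.18 ± 0.04, -0.24 ± 0.04 and -0.27 ± 0.04). NUP107 did not pass in TF-1 with the GC and length trend removed (adjusted p = 0.0789, edgeR). SEC13, which also serves vesicle coats, was the single shared higher member of that list (0.72 ± 0.04, 0.70 ± 0.05 and 0.37 ± 0.05). Without TF-1 cyclocreatine replicate 1 there were 3 higher and 6 lower.

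Zinc finger genes of the ZNF series, mostly DNA-binding repressors, had 58 of 469 shared lower (12.4%) and 21 shared higher (4.48%). ZNF345 fell (-1.99 ± 0.14, -0.89 ± 0.15 and -0.69 ± 0.13) and ZNF256 (-1.15 ± 0.20, -1.09 ± 0.13 and -0.71 ± 0.13), while ZNF837 rose by 1.08 ± 0.17, 1.22 ± 0.20 and 0.75 ± 0.17. Many genes of this family are alike in sequence and low in level, and these 3 had at most 16.25 CPM.

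Erythroid and megakaryocyte markers were shared in the lower direction where they were shared. Of 9 granulocyte and monocyte markers 2 were shared higher, but the block fit called 3 of them higher and 3 lower. The medians of that list, 0.141, 0.0536 and -0.0966, had no common sign. Of 25 erythroid genes 5 (20%) were shared lower and 0 higher, and of 16 megakaryocyte genes 6 (37.5%) were shared lower and 0 higher. In TF-1 8 erythroid genes were called higher and 13 lower, and the erythroid median was 0 in UCSD-AML1. TFRC, the transferrin receptor that brings iron into cells, went from 5292 ± 178.3 to 2370 ± 245.6 CPM in TF-1, from 3487 ± 80.61 to 1965 ± 47.01 in UT-7 and from 579.9 ± 14.31 to 361 ± 8.914 in UCSD-AML1. SLC4A1, the anion exchanger of red cells, fell (-1.61 ± 0.11, -1.37 ± 0.19 and -0.78 ± 0.18), and HEMGN (-0.95 ± 0.06, -2.08 ± 0.09 and -0.75 ± 0.06). Among platelet proteins, the integrin ITGB3 fell (-1.28 ± 0.07, -0.69 ± 0.08 and -0.99 ± 0.05), GP1BA (-0.70 ± 0.06, -0.50 ± 0.10 and -1.36 ± 0.05), and the tubulin TUBB1 (-0.60 ± 0.08, -0.36 ± 0.07 and -0.92 ± 0.08). The summed level of 25 erythroid markers was 9270 to 9710 CPM in vehicle and 6360 to 6760 CPM in treated TF-1 libraries, 7950 to 8030 and 5830 to 6170 CPM in UT-7, and 985 to 1020 and 761 to 779 CPM in UCSD-AML1. The summed level of 18 megakaryocyte markers did not fall in each line. It was 1210 to 1230 CPM in vehicle and 1450 to 1550 CPM in treated TF-1 libraries, 1530 to 1580 and 1590 to 1650 in UT-7, and 3070 to 3250 and 2190 to 2210 in UCSD-AML1. Fewer cells of a type and less RNA per cell cannot be told apart in bulk RNA.

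The remaining lists concern creatine, polyamines, amino acid carriers and the stress response to amino acid shortage. The creatine handling list had 5 tested genes, of which SLC6A8, which carries creatine into cells, and CKB, the cytosolic kinase, were shared lower. SLC6A8 fell (-1.11 ± 0.11, -1.53 ± 0.18 and -2.34 ± 0.33), and CKB (-0.57 ± 0.05, -0.76 ± 0.05 and -0.48 ± 0.06). With vehicle, SLC6A8 stood at 520.7 ± 18.6, 31.88 ± 2.276 and 7.829 ± 2.78 CPM, by line as above. Its treated levels were 241 ± 27.48, 11.08 ± 3.042 and 1.547 ± 0.3714 CPM. The largest fold change of SLC6A8 thus came from UCSD-AML1, where its level was lowest. MECOM was not shared, since it passed in UT-7 (-0.74 ± 0.23) and UCSD-AML1 (-0.28 ± 0.08) and not in TF-1 (-0.26 ± 0.15, adjusted p = 0.148 in edgeR). In UT-7 it was low, at 6.344 CPM with vehicle and 3.777 CPM under cyclocreatine. Its sign was the same in each line, and the block fit called MECOM lower (-0.344, adjusted p = 0.000716 in edgeR). It passed in TF-1 without cyclocreatine replicate 2 (-0.47, adjusted p = 0.00084 in edgeR) and did not pass in UCSD-AML1 with DESeq2's Wald test (0.101). Of 14 polyamine genes SAT1, ARG2 and AMD1 were shared higher and AZIN1, which protects ornithine decarboxylase from decay, shared lower (-0.97 ± 0.04, -0.72 ± 0.05 and -0.49 ± 0.05). The shares were 21.4% and 7.14%, against 8.76% and 8.97% of all genes. ARG2, a mitochondrial arginase that makes ornithine, rose by 0.64 ± 0.07, 0.23 ± 0.07 and 1.65 ± 0.07, with overlap of treated and vehicle libraries in at least 1 line. The higher count was 5 without TF-1 cyclocreatine replicate 2 or 4, and the lower count 2 without TF-1 cyclocreatine replicate 1. Of 16 amino acid transporters SLC38A1, a glutamine carrier (-1.67 ± 0.06, -0.87 ± 0.17 and -0.69 ± 0.05), and SLC7A1, an arginine carrier (-0.50 ± 0.05, -0.31 ± 0.05 and -0.28 ± 0.05), were shared lower. This share, 12.5%, is near the 8.97% of all genes, and 0 were shared higher. The medians of the list were -0.22, -0.147 and 0.0364, and in UCSD-AML1 3 members were called higher and 3 lower. SLC38A1 was low in UT-7, at 3.605 ± 0.6286 CPM with vehicle.

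The integrated stress response list had no common direction, with medians of -0.57, 0.05 and 0.13 over 17 genes. Of these 1 (5.88%) was shared higher and 2 (11.8%) lower, near the 8.76% and 8.97% of all genes. By line 1 member was called higher and 13 lower in TF-1, 3 and 4 in UT-7, and 6 and 5 in UCSD-AML1. Its member DDIT3, a transcription factor of stress-induced death, rose by 0.96 ± 0.13, 0.79 ± 0.11 and 1.08 ± 0.13. ATF5, a transcription factor of the same response, fell (-0.73 ± 0.06, -0.63 ± 0.05 and -0.60 ± 0.06), and TRIB3, its pseudokinase target, (-0.86 ± 0.05, -0.62 ± 0.06 and -0.17 ± 0.06). The call of TRIB3 in UCSD-AML1 was lost without cyclocreatine replicate 3 (adjusted p = 0.055, edgeR), which leaves 1 shared lower member, and 3 were shared lower when UCSD-AML1 lost vehicle replicate 2 or treated replicate 1.

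A further 360 genes (2.47% of those tested) were called in each line without a common sign, so that 87.8% of the 2947 genes called in all lines had the same sign. UCSD-AML1 was the odd line for 86 genes higher and 84 lower there, UT-7 for 55 and 51, and TF-1 for 34 and 50. SPTB, beta spectrin of the red cell membrane, went from 111.4 ± 3.167 to 64.55 ± 1.125 CPM in TF-1 and from 221.8 ± 4.235 to 155.7 ± 8.691 in UT-7, but from 4.108 ± 0.3913 to 12.23 ± 1.214 in UCSD-AML1. ZFPM1, a cofactor of GATA1, fell in TF-1 and UT-7 and rose in UCSD-AML1 (-0.56 ± 0.06, -0.63 ± 0.06 and 0.45 ± 0.06). IL1RL1, the interleukin-33 receptor, did the opposite (0.76 ± 0.09, 0.48 ± 0.05 and -0.53 ± 0.07). ZFP36L1, an RNA decay factor, fell in TF-1 alone among the lines (-0.38 ± 0.07, 0.52 ± 0.06 and 0.43 ± 0.06).

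The shared genes differed in transcript composition. The median GC content of the longest annotated transcript was 53.3% for shared higher genes, 45.2% for shared lower genes and 48.7% for all genes tested, and the median length was 2994, 4198 and 3546 bases. Values could be matched for at least 96.8% of each set. Without ribosomal protein genes the shared higher median was 53.8%. The part of GC content and length in these calls was not tested beyond removing their trend, after which 1583 genes were shared higher and 1293 lower, and 2228 of the 2587 shared genes kept their calls. In the 250 bases before the start, matched in RefSeq (GRCh38.p14) for 1031 shared higher and 1072 shared lower genes and searched on both strands, CACGTG (6 letters, its own reverse complement) occurred in 10.4% of higher and 8.21% of lower promoters, against 8.83% of the 11263 matched promoters of tested genes and 6.49% of all 27305 promoters in the table. TGACGT, the core of the cyclic AMP element, occurred in 9.8% and 12.5%, against 10.1% and 7.42%. The STAT palindrome occurred in 5.24% and 7.28%, against 5.66% and 6.78%, and GTAAACA in 2.04% and 2.8%, against 1.93% and 2.98%. Both shared sets also differed from the whole table in general elements, with GGGCGG in 68.1% and 67.4% against 65.6% of tested genes and 42.3% of the table, and CCGGAAG in 18.2% and 17.7% against 15.5% and 8.82%. A match is a description of the sequence and does not show that a factor binds there.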

How the data were processed

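RNA was measured in 24 libraries, and groups were read from the labels. The deposited files, 1 for each library, hold raw counts per RefSeq symbol (25728 symbols). FastQC, TopHat2, RSEM, GRCh37 and hg19 are named in the submitters' processing notes, without versions or roles, and strand use is not stated. Libraries were analysed singly. Chi-square per degree of freedom over the 36 pairs of replicates was 1.29 to 19.3, so that none matched within sampling noise. Overlapping, antisense and near-identical genes are uncertain.

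Genes were kept by filterByExpr (smallest count 10, smallest total 15) and scaled by TMM. edgeR 4.0.16 (R 4.3.3) fitted line plus treatment (block) and 1 mean per group, with robust quasi-likelihood (18 residual degrees of freedom for the latter, biological coefficient of variation 0.0572), with Benjamini-Hochberg adjustment over 14588 genes. An SE is the absolute log2 fold change divided by the root of its F. DESeq2 1.42.0 was an alternative, and scripts were tested on simulated data. Plots used matplotlib 3.10.9. GC content and length came from GENCODE transcripts, on another build than the counts.

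Members, lists, described lists and tests were chosen with earlier results of these data known. Named genes were, per direction, the 12 shared genes with the largest change held in each line and the 5 of most even change (1.5-fold), both with at least 5 CPM, up to 3 shared members of each described list (1 CPM), 4 genes called without a common sign, the genes nearest the threshold, SLC6A8, CKB and MECOM. Other list members named, and LAMP1 as a promoter, were chosen after their values were seen. Alternatives changed scaling, filter, tool, threshold, model, blocks and libraries. Some genes chosen by these rules are not reported here singly, and they remain in the counts.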

Additional observations from a re-analysis of the deposited data

Results flagged for a closer look

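Single libraries stood apart from the other 3 of their group in 42 of 672 groups of 4 (112 named genes in 6 groups), where the gap to the nearest library exceeded Dixon's 95% critical share of the group's range. Chance alone gives such a gap in about 1 group of 20. In TF-1 cyclocreatine replicate 1 this held for SAT1 (200 CPM, others 160 to 165), ARMCX5 (7.28 CPM, others 8.57 to 8.79), PEMT (35.7 CPM, others 25.6 to 26.9), RPL12 (1450 CPM, others 1160 to 1170), NDUFS8 (157 CPM, others 111 to 119), COX7C (396 CPM, others 309 to 311), ATP6V1F (154 CPM, others 130 to 131), HLA-DRA (185 CPM, others 163 to 165) and BARD1 (5.63 CPM, others 9.92 to 10.5). For TF-1 cyclocreatine replicate 2 it held for TXNIP (646 CPM, others 598 to 600). For TF-1 cyclocreatine replicate 3 it held for SLC4A1 (6.35 CPM, others 8.64 to 9.09) and GP1BA (21.3 CPM, others 26.7 to 27.4). In UCSD-AML1 cyclocreatine replicate 1 this held for MAP2K7 (86.6 CPM, others 97.2 to 97.9) and MTURN (8.38 CPM, others 11.9 to 12.3). For UCSD-AML1 cyclocreatine replicate 2 it held for RAD52 (31.1 CPM, others 28.2 to 28.5), DLST (175 CPM, others 168 to 169), PFKFB2 (8.15 CPM, others 6.92 to 7.11) and NUP188 (179 CPM, others 166 to 167). For UCSD-AML1 cyclocreatine replicate 3 it held for SGK1 (2.78 CPM, others 1.71 to 1.8) and IFIT3 (53 CPM, others 49.5 to 50). For UCSD-AML1 cyclocreatine replicate 4 it held for AZIN1 (155 CPM, others 145 to 146) and SLC7A1 (200 CPM, others 207 to 207). In UT-7 vehicle replicate 1 this held for CDC20 (124 CPM, others 132 to 134). For UT-7 vehicle replicate 3 it held for ETNK1 (107 CPM, others 117 to 119), PIM2 (187 CPM, others 180 to 180), ETV4 (21.1 CPM, others 18.2 to 18.5), APOL4 (80.5 CPM, others 88 to 88.8) and PIM1 (1120 CPM, others 1090 to 1090). For UT-7 vehicle replicate 4 it held for IDUA (5.37 CPM, others 7.19 to 7.55) and RPL12 (445 CPM, others 465 to 467). In TF-1 vehicle replicate 1 this held for TPT1 (1840 CPM, others 1960 to 1980) and SPTB (116 CPM, others 109 to 110). For TF-1 vehicle replicate 2 it held for ATP6V1F (111 CPM, others 103 to 103) and ZFP36L1 (37.3 CPM, others 33 to 33.7). For TF-1 vehicle replicate 3 it held for UQCRB (174 CPM, others 180 to 181). For TF-1 vehicle replicate 4 it held for MAP2K7 (55 CPM, others 47.4 to 47.5). In UT-7 cyclocreatine replicate 1 this held for SAMD9 (45.1 CPM, others 52.2 to 52.8). For UT-7 cyclocreatine replicate 3 it held for DLST (125 CPM, others 131 to 132), FDFT1 (664 CPM, others 727 to 735) and TXNIP (1190 CPM, others 1370 to 1380). For UT-7 cyclocreatine replicate 4 it held for CHURC1 (19.8 CPM, others 17 to 17.4). In UCSD-AML1 vehicle replicate 1 this held for IL1RL1 (16.7 CPM, others 16 to 16).

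The effect of cyclocreatine differed between the lines for 73 of the 112 named genes (edgeR's interaction test, adjusted p under 0.05). The adjusted p-values follow, with genes grouped by the line of largest change, and a line named below marks only this grouping. The test asks whether the lines differ at all and not which line is largest. For some genes 2 lines were nearly equal, such as PDK1 (-0.5415 in TF-1 and -0.5422 in UCSD-AML1). Among genes with the largest change in TF-1, the adjusted p was 2.71e-08 for SAT1, 0.0124 for GBP2, 1.13e-05 for RAD52, 0.000488 for EPB41L4A-AS1, 0.000263 for NT5M, 5.38e-08 for ETNK1, 0.0495 for HYAL3 and 0.00045 for MTURN. In TF-1 it was further 4.76e-14 for CHKA, 0.0314 for FAM210B, 0.00209 for APOL4, 4.88e-08 for TRIB3, 6.28e-14 for RPL22L1, 0.00167 for RPL12, 0.000174 for SNHG6 and 0.000239 for ZFAS1. In TF-1 it was further 2.38e-05 for TPT1, 0.000241 for NOB1, 0.00102 for NDUFS4, 0.0023 for COX7C, 4.07e-06 for UQCRB, 0.0396 for PDHB, 0.0027 for ENO2 and 1.35e-06 for PFKFB4. In TF-1 it was further 5.35e-06 for FADS2, 3.84e-16 for PIM1, 6.06e-07 for CCND1, 0.000387 for IFIT3, 1.85e-07 for SAMD9, 1.78e-06 for ZNF345, 0.00748 for SLC4A1 and 5.56e-07 for TFRC. In TF-1 it was further 0.000113 for ITGB3, 6.18e-07 for AZIN1, 2.91e-12 for SLC38A1, 0.032 for SLC7A1, 2.12e-05 for SEC13, 2e-08 for NUP188, 6.6e-06 for BRCA1 and 0.0053 for FANCG. Among genes with the largest change in UCSD-AML1, the adjusted p was 0.0471 for RAPGEFL1, 0.00212 for UCP2, 0.0141 for PINK1, 2e-04 for PIM2, 0.0194 for SLC6A8, 0.00757 for RRN3, 6.91e-15 for PFKFB2 and 0.000248 for BNIP3. In UCSD-AML1 it was further 0.0314 for PDK1, 1.63e-09 for GP1BA, 0.00041 for TUBB1 and 6.54e-14 for ARG2. Among genes with the largest change in UT-7, the adjusted p was 2.9e-06 for CUL7, 0.00365 for DNHD1, 0.0155 for FYB, 0.0128 for CKB, 1.17e-06 for UBTF, 0.000241 for EGLN1, 0.000756 for MVK and 0.00148 for ACAT2. In UT-7 it was further 0.000119 for FDFT1, 5.59e-10 for SREBF1, 4.02e-09 for TXNIP, 0.0205 for CISH, 0.02 for HLA-DRA, 0.00046 for CCNE2, 0.000146 for PCNA and 9.46e-12 for HEMGN. In UT-7 it was further 0.0378 for CDC20. For genes without a common sign it was 1.2e-19 for SPTB, 6.84e-13 for IL1RL1, 1.25e-13 for ZFPM1 and 3.19e-10 for ZFP36L1.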

How the results depend on the processing

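Counts over all genes moved by over 1.5 times in 2 alternatives. Tested against 1.2-fold in place of 0, 1328 genes were higher and 1599 lower in the block fit, and 250 and 251 were shared. Counting as shared every gene called in the block fit with the same sign in each line gave 3144 higher and 3369 lower. SPTB, whose lines disagree, changed sign over all lines, from -0.28 to 0.0243 with DESeq2's Wald test (adjusted p = 0.938) and to 0.091 as the mean of the line effects (adjusted p = 0.0377 in edgeR). Leaving out a library gave 3972 to 4151 higher and 4353 to 4504 lower genes in the block fit, 1183 to 1418 and 1210 to 1447 shared genes, and 5917 to 7053 genes that differed between lines; 2385 to 2528 of the 2587 shared genes remained. DESeq2's Wald test gave 1230 and 1398 shared genes, each line fitted alone 1412 and 1361, and no filter 1182 and 1236. The labels do not say whether replicate numbers pair the libraries. Treated and vehicle libraries of the same number had deviations from their group means that correlated at -0.048 to 0.0715. No pairing was seen in these values, which cannot show that there was none. With the replicate block 3607 genes were higher and 3967 lower, and 1212 and 1237 were shared. Removing the GC and length trend was an alternative chosen after seeing the data, as was leaving out TF-1 cyclocreatine replicate 1 beside each list. SGPL1 in TF-1 and ZFP36L1 over all lines (0.22, adjusted p = 0.0363) lost their calls under several settings; ZFP36L1 was 0.19 with an adjusted p of 0.0582 by DESeq2. IL1RL1 and ZFPM1 over all lines passed without the line UCSD-AML1 (0.56 and -0.59). Both also passed with the GC and length trend removed (0.307 and -0.246) and as the mean of the line effects (0.235 and -0.246). IL1RL1 passed without any single UCSD-AML1 library, and ZFPM1 without some of them. ZFPM1 passed as well with library totals alone (-0.273) and DESeq2's Wald test (-0.257). Depth limits genes of a few CPM, such as SGK1, HLA-DRA in UT-7 and SLC6A8 in UCSD-AML1. The cause of these changes was not tested.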
